A study of Rattus norvegicus and Homo sapiens with 12 samples.

Results

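NRF2, the transcription factor encoded by NFE2L2, was followed with its inhibitor KEAP1 and 7 of its antioxidant targets in the human prostate cancer line DU145. The 9 genes were taken as a list of symbols (NFE2L2, KEAP1, NQO1, HMOX1, TXNRD1, SRXN1, GCLC, GCLM and SLC7A11), chosen with earlier results of these data known. They were found by Ensembl identifier among the 60107 genes of the DU145 count table. The study exposed prostate cancer cells to media conditioned by mesenchymal stem cells (MSCs) and compared the parental population (F0) with the population that grew out afterwards (F2). F0 DU145 cells were parental and F2 DU145 cells had been cultured repeatedly for 72 h in media of human MSCs bought from Lonza, with recovery in complete media between rounds. The sample labels give 2 such rounds and the description of the series gives 3. Both populations were grown in DMEM with 10% FBS, and each was profiled as 3 libraries by QuantSeq, which reads the 3′ ends of polyadenylated RNA. The labels call the 3 samples of a population replicates and do not say whether the F2 samples came from separate selections, so p-values measure the spread between these samples.

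NRF2 is made continuously and is normally held by KEAP1, which passes it to the CUL3 ubiquitin ligase for degradation. Oxidants and electrophiles modify cysteines of KEAP1, after which NRF2 escapes, pairs with a small MAF protein and binds antioxidant response elements of genes for quinone reduction, heme breakdown, the thioredoxin system and glutathione synthesis. In prostate cancer cells this pathway is known for its part in tolerance of oxidative stress and of drugs.

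Of the 9 genes, 8 could be tested and 6 were lower in F2, namely NFE2L2, NQO1, HMOX1, GCLC, GCLM and SLC7A11. TXNRD1 and SRXN1 did not pass the test, KEAP1 was too low to test, and 0 of the 9 were higher. The differences were small, and 0 reached 2-fold. Expression is given as CPM, the count of a gene scaled by TMM to a library of 1000000 counts, and the fold change as the log2 difference F2 minus F0, negative where F2 was lower. The quasi-likelihood test of edgeR was applied to all genes with enough counts, and a gene was called at a Benjamini-Hochberg adjusted p under 0.05. Of 14316 genes tested, 2599 were called (18.2%), and 1241 were called lower in F2 (8.67%). Among the 8650 tested genes with a mean of at least 10 CPM, a level that all 8 tested members exceeded, 10.9% were called lower. In either direction, 23.3% of these 8650 genes were called. The median log2 fold change was -0.25 over the 8 tested members and -0.002 over all tested genes. All 3 F2 libraries lay below all 3 F0 libraries for 6 of the 8 members, and for 17.1% of all tested genes, while 34% of all tested genes had no overlap in either direction. An exact permutation test of 3 libraries against 3 cannot give a two-sided p under 0.1.

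**Figure D1:**
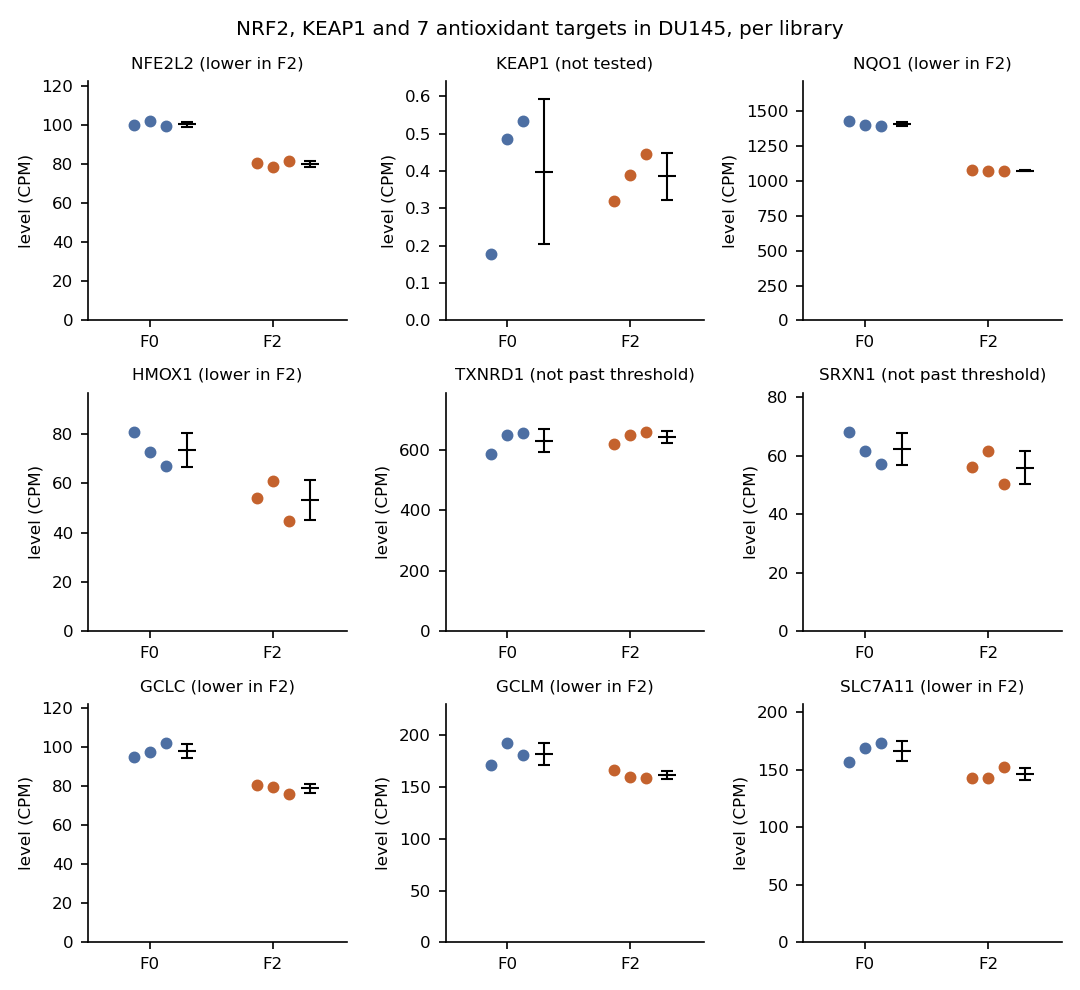
TMM-normalised CPM of the 9 genes in each DU145 library, with 1 panel per gene, F0 and F2 side by side, points for libraries and a bar for the mean. The F2 points lie below the F0 points for NFE2L2, NQO1, HMOX1, GCLC, GCLM and SLC7A11 and overlap them for TXNRD1, SRXN1 and KEAP1, which stays under 1 CPM.

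The libraries held between 15879480 and 16479239 gene counts. Libraries of one population differed from each other by more than sampling noise, and each counted as a separate sample. Genes encoded by mitochondrial DNA took 5.713 to 6.003% of gene counts in F0 and 10.23 to 10.632% in F2, and reads outside genes rose from 9.598 to 10.024% to 11.334 to 11.936% of uniquely placed reads. The part of these 2 shares in the results was not tested. The same 6 members were called after the mitochondrially encoded genes were left out. That fit scaled the remaining genes by TMM as before, so it cannot show whether the mitochondrial share plays a part. DU145 is an epithelial line, and 6 of 7 epithelial markers passed the count filter, with KRT5 at 0. All 6 were called, 4 higher and 2 lower in F2. KRT19 rose from 255 to 405 CPM, and CDH1 fell from 14 to 5.78 CPM (log2 fold change -1.27, edgeR adjusted p = 7.6e-07). The luminal prostate markers KLK2 and FOLH1 were at 0. The 15 MSC markers summed to 158 to 178 CPM in F0 and 223 to 241 CPM in F2, almost all of it NT5E. Of the 4 that were tested, NT5E was called higher and FN1 lower. FN1 fell from 4.88 to 3.4 CPM (log2 fold change -0.52, edgeR adjusted p = 0.0406). COL1A1 and LEPR were not called, at -0.36 and -0.42 on the log2 scale. In every library 10 of the 15 stayed under 1 CPM, with THY1, CXCL12, LUM, POSTN and SPARC at 0. The 4 blood cell markers summed to 5.57 to 5.9 CPM in F0 and 7.08 to 9.61 CPM in F2, nearly all of it CD68, which was called higher (log2 fold change 0.60, edgeR adjusted p = 0.00979), with PTPRC and HBB at 0. The part of these markers in the results was not tested. In bulk RNA, fewer cells that express a gene and less RNA of it per cell cannot be told apart. Scaling by library size alone shifted the median of all tested genes to -0.092 and the calls to 832 higher and 2805 lower, against 1358 and 1241 with TMM.

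NFE2L2 (ENSG00000116044, minus strand, chr2:177227595-177392697 on GRCh38) encodes NRF2 itself. KEAP1 grips the protein through a pair of short motifs, DLG and ETGE, near its amino terminus. Both are encoded in exon 2 of 5 of the transcript ENST00000397062, from codon 29 and codon 79, and they are shown because they join the regulator to its inhibitor. The capitals mark the motif codons, and the sequences, read from GENCODE release 29, lie at chr2:177234215-177234241 and chr2:177234062-177234091 on the minus strand.
NFE2L2 DLG motif: caagatataGATCTTGGAgtaagtcga
NFE2L2 ETGE motif: ctagatgaaGAGACAGGTGAAtttctccca
QuantSeq reads come from the 3′ end of the transcript, so the counts do not cover these codons.

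NFE2L2 stood at 99.9, 102 and 99.8 CPM in F0 replicates 1 to 3, and F2 replicates 1 to 3 had 80.4, 78.7 and 81.5 CPM. The libraries of each population were close together and the populations did not overlap. The mean fell from 101 ± 1.51 to 80.2 ± 1.4 CPM (SD, n = 3), and the log2 fold change was -0.33 (SE 0.0498, edgeR adjusted p = 0.0001). The F2 level was 0.796 of the F0 level, and 10.0% of all tested genes had a lower log2 fold change.

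KEAP1 (ENSG00000079999, minus strand, chr19:10486120-10503741), the adaptor that hands NRF2 to the ligase, was barely detected. Its raw counts were 3, 8 and 9 in F0, and F2 had 5, 6 and 7. The 2 populations overlapped, and the gene was below the filter of the test. The 20 counts of F0 and 18 of F2 gave a scaled ratio F2 over F0 of 0.97 with an exact 95% interval of 0.484 to 1.93, which covers counting error only. A difference of the size seen in NFE2L2 was not detectable at this depth. Without the filter, edgeR gave a log2 fold change of -0.04 (SE 0.627, 95% interval -1.27 to 1.19, adjusted p = 0.982).

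Of 20 listed partners and regulators, 19 were tested, 1 was called higher and 1 lower, and their median log2 fold change was -0.076. The share called was 10.5%, against 18.2% of all tested genes and 23.3% of those with a mean of at least 10 CPM. With library size alone 10 of these genes were called. SQSTM1, the autophagy receptor p62 that sequesters KEAP1 and is itself an NRF2 target, fell from 601 ± 10.5 to 449 ± 17.1 CPM (log2 fold change -0.42, SE 0.0429, edgeR adjusted p = 8.1e-07). MAFG, a small MAF partner of NRF2, rose from 199 ± 11.2 to 231 ± 8.79 CPM (log2 fold change 0.22, edgeR adjusted p = 0.00465). The MAFG call was lost with library size alone, where its log2 fold change was 0.127 (adjusted p = 0.0726). The others named here did not pass the test. NFE2L1, the NRF2 relative that controls proteasome genes, was at -0.11 on the log2 scale (adjusted p = 0.145 in edgeR), and CUL3, the scaffold of the ligase, was at -0.15 (adjusted p = 0.0917). BACH1, the repressor that competes with NRF2 on HMOX1, was at 0.22 (adjusted p = 0.216), and MAFK, another small MAF, was at -0.12 (adjusted p = 0.222). With library size alone NFE2L1, CUL3 and MAFK were called lower, at -0.197, -0.244 and -0.205, and BACH1 was at 0.126. Single libraries moved these values, to -0.101 for CUL3 without F2 replicate 1, to 0.122 for BACH1 without F0 replicate 1, and for MAFK to -0.0447 without F0 replicate 1, -0.0723 without F2 replicate 3 and -0.175 without F0 replicate 3.

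NQO1 (ENSG00000181019, minus strand, chr16:69706996-69726951), the quinone reductase often used as a readout of NRF2 activity, had the lowest p of the members. It stood at 1427, 1399.7 and 1397 CPM in F0, against 1077, 1070.2 and 1072 CPM in F2. The gap between the populations was many times the spread within either. The mean fell from 1408 ± 16.5 to 1073 ± 3.25 CPM (log2 fold change -0.39, SE 0.0385, 95% interval -0.47 to -0.31, edgeR adjusted p = 5.3e-07). Raw NQO1 counts were 23111 to 24163 in F0 and 16480 to 16838 in F2.

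The genes nearest to NQO1 in pattern were sought by the Pearson correlation of log2 CPM over the 6 libraries, among 8649 genes with a mean of at least 10 CPM. PDXK, pyridoxal kinase, had r = 0.9992 and means of 429 CPM in F0 and 251 CPM in F2. HEATR5A had r = 0.999 (log2 fold change -0.69) and MFSD12 had r = 0.9988 (log2 fold change -0.48). The 6 points are 2 populations of 3 libraries, so r mainly reflects the F0 to F2 step, and 358 genes (4.14%) had r over 0.95. Among the members, r with NQO1 was 0.99 for NFE2L2, 0.96 for GCLC, 0.85 for HMOX1, 0.85 for SLC7A11, 0.83 for GCLM, 0.6 for SRXN1 and -0.28 for TXNRD1.

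Many genes that handle quinones, aldehydes and drugs were lower in F2, as NQO1 was. Of 22 listed genes, 20 were tested, and 12 were called lower and 0 higher, with a median log2 fold change of -0.42. Calls made up 60.0%, against 18.2% of all tested genes and 23.3% of those with a mean of at least 10 CPM. PIR, pirin, an iron-binding nuclear protein, fell from 52.5 ± 2.97 to 31.5 ± 1.29 CPM (log2 fold change -0.74, edgeR adjusted p = 2.3e-07). OSGIN1, an oxidative stress induced growth inhibitor, fell from 26.8 ± 1.49 to 18.6 ± 1.63 CPM (log2 fold change -0.53, edgeR adjusted p = 0.00029). NQO2, the close paralog of NQO1, fell from 31.1 ± 1.65 to 21.6 ± 0.533 CPM (log2 fold change -0.52, edgeR adjusted p = 8.2e-05). UGDH, AKR1B1, EPHX1, ABCC4 and ALDH3A1, named after their values were seen, were also called lower, with UGDH at 415 CPM in F0 against 303 CPM in F2. The largest changes lay in genes with few counts, likewise named after their values were seen. ABCG2, a drug efflux pump, had 50, 62 and 52 counts in F0 and 24, 29 and 22 counts in F2. The aldo-keto reductases AKR1C1 and AKR1C2 had 15, 19 and 37 and 20, 11 and 13 counts in F0, against 4, 2 and 8 and 2, 7 and 3 counts in F2. AKR1C1 and AKR1C2 are near-identical copies between which reads can be split or lost, so their separate values are uncertain. Their relative AKR1C3, also named after its values were seen, was called lower too. It had 61, 71 and 48 counts in F0 and 26, 36 and 34 counts in F2.

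HMOX1 (ENSG00000100292, plus strand, chr22:35380361-35394214), the inducible oxygenase that breaks down heme, stood at 80.7, 72.7 and 66.9 CPM in F0. It stood at 54, 60.9 and 44.9 CPM in F2. Relative to the mean, the spread within each population was the widest among the called members, and the highest F2 library remained below the lowest F0 library. The mean fell from 73.4 ± 6.96 to 53.3 ± 8.04 CPM (log2 fold change -0.46, SE 0.0867, 95% interval -0.65 to -0.28, edgeR adjusted p = 0.00081).

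HMOX2, the constitutive heme oxygenase, moved the other way. Its levels were 82.8, 84.7 and 81 CPM in F0 and 104, 108 and 109 CPM in F2, with a log2 fold change of 0.37 (SE 0.05, edgeR adjusted p = 2.7e-05). HMOX1 counts per HMOX2 count, a ratio taken within each library and so free of scaling, went from 0.886 ± 0.0786 to 0.498 ± 0.0794. The populations did not overlap in this ratio, which follows from HMOX1 lying lower and HMOX2 higher in every F2 library. Its exact two-sided permutation p of 0.1 is the smallest that 3 libraries against 3 allow (0.12 adjusted over 12 ratios).

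Of 12 genes for heme and iron, 11 were tested, 1 was called higher, HMOX2, and 3 lower. The share called was 36.4%, against 18.2% of all tested genes and 23.3% of those with a mean of at least 10 CPM. FECH, ferrochelatase, the last enzyme of heme synthesis, fell from 38.7 ± 2.5 to 27 ± 0.757 CPM (log2 fold change -0.52, edgeR adjusted p = 5.4e-05). BLVRB, biliverdin reductase B, fell from 61 ± 2.08 to 46.8 ± 1.47 CPM (log2 fold change -0.38, edgeR adjusted p = 0.00014). FTH1, the ferritin heavy chain that stores iron, fell from 1967 ± 61.1 to 1649 ± 199 CPM (log2 fold change -0.25, edgeR adjusted p = 0.00615), and it has many processed pseudogenes that can take its reads. With F2 replicate 2 left out, FTH1 was at -0.161 on the log2 scale and still called (edgeR adjusted p = 0.00559). Over the 11 tested genes the median was 0.01 on the log2 scale.

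TXNRD1 (ENSG00000198431, plus strand, chr12:104215779-104350305) encodes cytosolic thioredoxin reductase, a selenoprotein. Its selenocysteine is read from a TGA codon, codon 648 of 650 in the transcript ENST00000525566, in the last of 17 exons. The codon, in capitals, is shown with its neighbours because it sets this enzyme apart from the other members, and the whole stretch lies at chr12:104348404-104348421 on the plus strand.
TXNRD1 selenocysteine codon: gctggctgcTGAggttaa

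TXNRD1 stood at 585, 648 and 655 CPM in F0, against 619, 647 and 657 CPM in F2. The populations overlapped almost completely. The log2 fold change was 0.03 (SE 0.0473, edgeR adjusted p = 0.752), and its 95% interval of -0.07 to 0.13 leaves out falls of the size seen in NFE2L2 and NQO1. The sign was not stable, being -0.0635 with library size alone and -0.0237 without F0 replicate 1. RPL18AP3 and EID3 overlap the gene in the annotation.

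SRXN1 (ENSG00000271303, minus strand, chr20:646615-653370), sulfiredoxin, which repairs over-oxidised peroxiredoxins, stood at 68, 61.6 and 57.2 CPM in F0. It stood at 56, 61.5 and 50.4 CPM in F2. F2 replicate 2 lay inside the F0 range, so the populations overlapped. The log2 fold change was -0.15 (SE 0.0748, edgeR adjusted p = 0.168), and the gene passed the threshold without F2 replicate 2 (-0.225, adjusted p = 0.037) and with library size alone (-0.244, adjusted p = 0.023). The annotation lists AL121758.1 on the same strand across SRXN1, with 0 counts in all libraries, and reads in both genes may have been set aside as ambiguous.

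Other genes of the thioredoxin system went both ways. Of 19 listed, 18 were tested, and 2 were called higher and 4 lower, with a median log2 fold change of -0.01. Calls made up 33.3%, against 18.2% of all tested genes and 23.3% of those with a mean of at least 10 CPM. TXN, thioredoxin, the substrate of TXNRD1, had means of 686 CPM in F0 and 694 CPM in F2 (log2 fold change 0.02, edgeR adjusted p = 0.863), and the sign turned with library size alone (-0.0733), without F0 replicate 1 (-0.0391) and without F2 replicate 3 (-0.00511). PRDX1, an abundant cytosolic peroxiredoxin, fell from 1606 ± 60.0 to 1279 ± 25.3 CPM (log2 fold change -0.33, edgeR adjusted p = 1.2e-05). PRDX5, a peroxiredoxin found in mitochondria and peroxisomes, rose from 149.5 ± 5.34 to 175 ± 4.92 CPM (log2 fold change 0.22, edgeR adjusted p = 0.00242), and was at 0.134 with library size alone. GLRX, glutaredoxin, named after its values were seen, was called lower (log2 fold change -0.55, adjusted p = 0.00578 in edgeR). TXNRD2, the mitochondrial thioredoxin reductase (-0.18), SESN3, a sestrin (-0.38), and GLRX3, an iron-sulfur glutaredoxin (0.16), passed in edgeR (adjusted p = 0.0335, 0.0239 and 0.0356) and not in DESeq2 (0.0665, 0.0538 and 0.0538). GLRX3 was also not called with library size alone (0.0701, edgeR adjusted p = 0.349). Each of these 3 also lost its call without F0 replicate 2 and without F2 replicate 1. TXNRD2 lost it as well without F0 replicate 3 or F2 replicate 3, SESN3 without F0 replicate 1, and GLRX3 without F0 replicate 1 or F2 replicate 3. Over these fits their log2 fold changes were -0.224 to -0.148 for TXNRD2, -0.431 to -0.328 for SESN3 and 0.123 to 0.19 for GLRX3.

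GCLC (ENSG00000001084, minus strand, chr6:53497341-53616970) encodes the catalytic subunit of glutamate-cysteine ligase, the rate-limiting enzyme of glutathione synthesis. It stood at 94.8, 97.5 and 102 CPM in F0, against 80.8, 79.7 and 76.2 CPM in F2. The populations were well apart. The mean fell from 98.1 ± 3.63 to 78.9 ± 2.4 CPM (log2 fold change -0.31, SE 0.0526, edgeR adjusted p = 0.00028).

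GCLM (ENSG00000023909, minus strand, chr1:93885205-93909456), the modifier subunit of the same enzyme, stood at 171, 192 and 181 CPM in F0, against 166, 159.9 and 159 CPM in F2. The populations did not overlap, but the highest F2 library came near the lowest F0 library. The mean fell from 181 ± 10.5 to 162 ± 4.06 CPM (log2 fold change -0.17, SE 0.05, edgeR adjusted p = 0.0254). The call was lost without F0 replicate 2, without F0 replicate 3, without F2 replicate 1 and without F2 replicate 3, and over all fits that left out 1 library the log2 fold change was -0.206 to -0.123. Counts of GCLC per GCLM count were 0.541 ± 0.0302 in F0 and 0.488 ± 0.00986 in F2, and the populations did not overlap (exact permutation p = 0.1, 0.12 adjusted over 12 ratios).

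SLC7A11 (ENSG00000151012, minus strand, chr4:138164097-138242349), the cystine importer xCT that supplies cysteine for glutathione, stood at 157, 169 and 173 CPM in F0, against 143, 143 and 152 CPM in F2. The populations were separate by a narrow margin. The mean fell from 166 ± 8.6 to 146 ± 4.77 CPM (log2 fold change -0.19, SE 0.0503, edgeR adjusted p = 0.0133). The call was lost without F0 replicate 2, without F0 replicate 3 and without F2 replicate 1, and the log2 fold change over the fits that left out 1 library was -0.228 to -0.156. SLC3A2, the heavy chain that carries xCT to the membrane, fell from 285 ± 9.9 to 238 ± 10.9 CPM (log2 fold change -0.26, edgeR adjusted p = 0.00067). Counts of SLC7A11 per SLC3A2 count were 0.584 ± 0.0105 in F0 and 0.614 ± 0.0175 in F2, without overlap (exact permutation p = 0.1, 0.12 adjusted over 12 ratios).

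**Figure D2:**
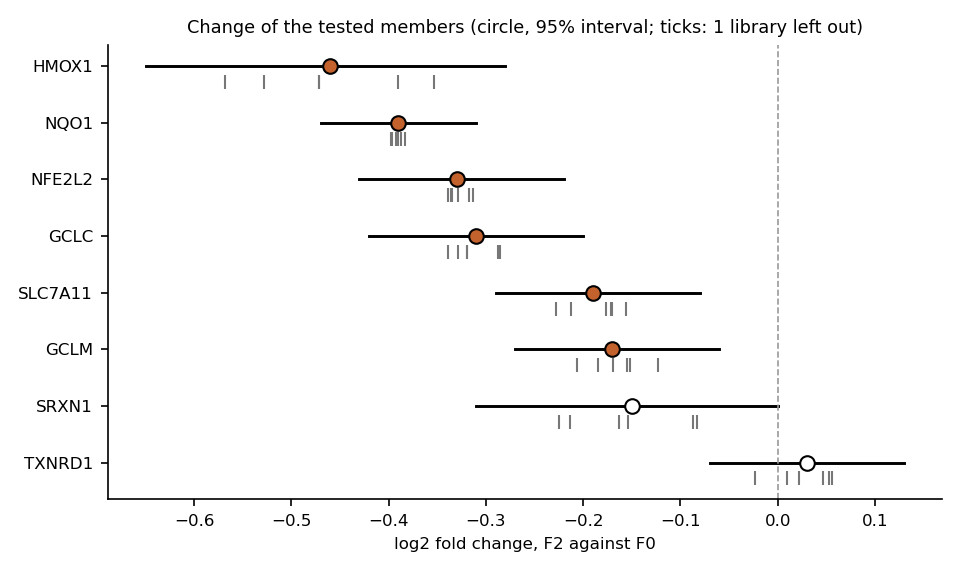
Log2 fold change (F2 minus F0) of the 8 tested genes with 95% confidence intervals from edgeR. HMOX1 (-0.46) and NQO1 (-0.39) lie lowest, TXNRD1 (0.03) spans 0, and KEAP1 was too low to test.

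Of 23 other genes of glutathione metabolism, 20 were tested, and 7 were called lower and 0 higher, with a median log2 fold change of -0.05. The share called was 35%, against 18.2% of all tested genes and 23.3% of those with a mean of at least 10 CPM. GSR, the reductase that regenerates glutathione with NADPH, showed the largest fall among those with a mean of at least 10 CPM. It stood at 200.5, 229 and 222 CPM in F0, against 141, 145 and 149 CPM in F2, with a log2 fold change of -0.58 (SE 0.0523, edgeR adjusted p = 1.6e-07). GPX3, a secreted glutathione peroxidase, had a log2 fold change of -0.42 (edgeR adjusted p = 0.001), and LANCL1, a glutathione-binding protein, of -0.35 (adjusted p = 0.00654). GSS, glutathione synthetase, which adds glycine after GCLC and GCLM, had means of 74.5 CPM in F0 and 72 CPM in F2 (edgeR adjusted p = 0.621). CHAC1 and GPX4, named after their values were seen, were called lower too. GPX7, also named so, had 38, 30 and 31 counts in F0 and 22, 7 and 9 counts in F2.

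NADPH feeds NQO1, TXNRD1 and GSR, and several genes that supply it were lower in F2. Of 13 listed, all 13 were tested, and 5 were called lower and 1 higher, with a median log2 fold change of -0.10. Calls made up 46.2%, against 18.2% of all tested genes and 23.3% of those with a mean of at least 10 CPM. PGD, of the pentose phosphate pathway, fell from 78.2 ± 2.39 to 59.5 ± 2.67 CPM (log2 fold change -0.39, edgeR adjusted p = 5.6e-05). IDH1, cytosolic isocitrate dehydrogenase, fell from 75.8 ± 2.81 to 60.3 ± 3.23 CPM (log2 fold change -0.33, edgeR adjusted p = 0.00049). TKT, transketolase, fell from 345 ± 35.3 to 272 ± 34.3 CPM (log2 fold change -0.35, edgeR adjusted p = 0.00246), and missed the threshold in DESeq2 (adjusted p = 0.0639). ME1, malic enzyme, named after its values were seen, was also called lower (-0.18). IDH2, the mitochondrial paralog of IDH1, was called higher at 0.21 (edgeR adjusted p = 0.034), and was not called in DESeq2 (adjusted p = 0.0637), with library size alone (0.12) or after any 1 library other than F2 replicate 2 was left out (0.172 to 0.269 over the 6).

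Of 12 genes for superoxide and peroxide, 8 were tested, and 3 were called lower and 0 higher. The share called was 37.5%, against 18.2% of all tested genes and 23.3% of those with a mean of at least 10 CPM. CAT, catalase, had a log2 fold change of -0.35 (edgeR adjusted p = 0.00527). PON2, a paraoxonase, and SOD1, cytosolic superoxide dismutase, had -0.17 and -0.15 (edgeR adjusted p = 0.0224 and 0.0112). Both lost the call without F0 replicate 2 and without F2 replicate 3, PON2 also without F0 replicate 3 and SOD1 also without F2 replicate 1, with ranges of -0.204 to -0.141 and -0.163 to -0.138.

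SLC7A11 and HMOX1 also answer to ATF4 and to heat and unfolded protein stress, so 16 genes of these responses were examined. All 16 were tested, 2 were called higher and 2 lower, and the median log2 fold change was 0.07. The share called was 25%, against 18.2% of all tested genes and 23.3% of those with a mean of at least 10 CPM. PPP1R15A, GADD34, which restarts translation after stress, rose from 30.8 ± 0.783 to 46.8 ± 3.45 CPM (log2 fold change 0.60, edgeR adjusted p = 5.2e-06). VEGFA, the angiogenic growth factor, rose from 79.6 ± 4.38 to 103 ± 4.97 CPM (log2 fold change 0.37, edgeR adjusted p = 0.00011). DNAJB1, a heat shock co-chaperone, fell from 216 ± 6.68 to 185 ± 17.8 CPM (log2 fold change -0.23, edgeR adjusted p = 0.00913), and was at -0.148 without F2 replicate 2 (adjusted p = 0.0293). HSPA5, the chaperone BiP, was called lower at -0.15 (edgeR adjusted p = 0.0216), and lost the call without F0 replicate 1, F0 replicate 2, F2 replicate 1 or F2 replicate 3 (-0.184 to -0.118 over all 6). ATF4 itself, named after its values were seen, was at -0.13 on the log2 scale (adjusted p = 0.122 in edgeR).

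**Figure D3:**
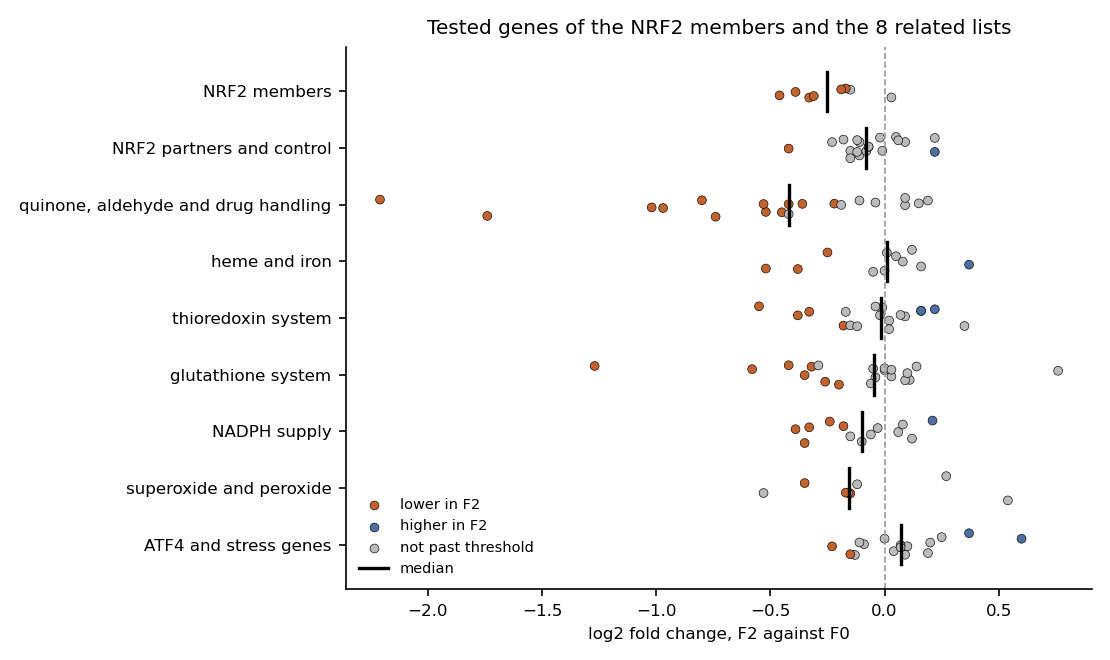
Log2 fold change (F2 minus F0) of each tested gene of the 9 members and the 8 further lists, with 1 row per list, colour for the call and a bar for the list's median. Genes for quinone, aldehyde and drug handling have a median of -0.42 with 12 called lower, and the ATF4 and stress list has a median of 0.07.

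Over the 8 further lists, 125 of 137 genes were tested, 37 were called lower (29.6%) and 7 higher (5.6%), and the median log2 fold change was -0.07. Among all tested genes 8.67% were called lower and 9.49% higher. Among those with a mean of at least 10 CPM, 10.9% were called lower and 12.4% higher.

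The 7 targets together summed to 2584, 2640.2 and 2632 CPM in F0 and to 2196, 2223 and 2211 CPM in F2. NQO1 supplied most of this difference. Without it, the remaining 6 targets summed to 1211 ± 46.8 CPM in F0 and 1137 ± 16.9 CPM in F2, a ratio of 0.939 against 0.844 with NQO1.

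Ratios to TXNRD1 within a library, chosen as a reference after its values were seen, do not depend on scaling and are given as a description. NQO1 counts per TXNRD1 count went from 2.24 ± 0.168 to 1.68 ± 0.057. The log2 difference of this ratio was -0.50 for HMOX1, -0.36 for NFE2L2, -0.34 for GCLC, -0.21 for SLC7A11 and -0.19 for GCLM, and in each of these the populations did not overlap. SRXN1 overlapped in this ratio as well (-0.18). The members without overlap were the same as in CPM, and no share over all genes was computed for this ratio.

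**Figure D4:**
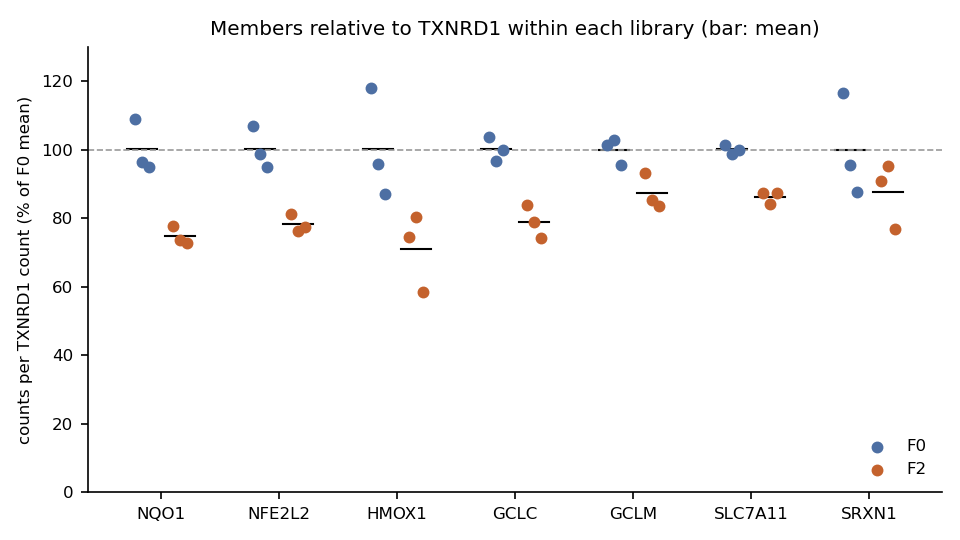
Counts of 7 members per TXNRD1 count within each DU145 library, as a percentage of the F0 mean, with points for libraries, bars for means and a dashed line at 100%. The F2 points lie below all F0 points for 6 of the 7 members, the same as in CPM, and overlap them for SRXN1. No share over all genes was computed.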

How the data were processed

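The authors made QuantSeq 3′ libraries of DU145 cells (3 F0 and 3 F2) and deposited raw counts per gene, without normalization. The submitters' processing notes name STAR 2.5.2a, HTSeq 0.6.0 and GRCh38. The annotation release and strand setting are not given in the sources used here. HTSeq summary lines without a gene (reads outside genes were 9.598 to 11.936% and ambiguous reads 1.363 to 1.502% of uniquely placed reads) stayed out of library sizes and tests, as did 92 spike-in RNAs with 0 counts. PCR duplicates cannot be seen in such counts. Symbols and positions came from GENCODE release 29, which held 56531 of 60107 identifiers. The rat table of the series was not used here, because its identifiers are not paired with names.

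Tests used R 4.3.3, edgeR 4.0.16, limma 3.58.1 and DESeq2 1.42.0. Low genes were removed by filterByExpr at a minimum count of 10 and a minimum total of 15, and the rest were TMM-scaled and compared between F2 and F0 with the edgeR quasi-likelihood test, two-sided, with Benjamini-Hochberg adjustment over all tested genes. The code was tested on simulated data, where it recovered 56.9% of log2 changes of 0.5, 81.8% of 1 and 98.5% of 2. Every tested member changed by less than 0.5, a size that was not simulated. The members and lists were chosen with earlier results of these data known, and no test of a list was run. Besides the members and their fixed partners and paralogs, the text names up to 3 genes per list and direction, those with the largest change among called genes averaging 10 CPM or more with no overlap between populations. It also names the 3 genes most correlated with the called member of lowest p. Genes of the pathway lists outside this rule are marked as named after their values were seen. Cell type markers given singly were also picked after their values were seen, and are not marked so. Alternatives were DESeq2, other scalings and filters, a replicate block, leaving out mitochondrially encoded genes, and leaving out each library. Replicate numbers were not treated as pairs. Some genes of the lists are not reported here by name.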

Additional observations from a re-analysis of the deposited data

How the results depend on the processing

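The members called numbered 6 of 8 with DESeq2, median-ratio size factors, either other filter, without mitochondrially encoded genes and with the replicate block, 7 with library size alone, and 4 to 7 when 1 library was left out. They were 4 without F0 replicate 2, without F0 replicate 3 or without F2 replicate 1, and 5 without F2 replicate 3. NFE2L2, NQO1, HMOX1 and GCLC were called in every one of these fits. With library size alone TXNRD1 turned to -0.0635, TXN to -0.0733 and SRXN1 was called at -0.244. With 1 library left out, TXNRD1 ranged from -0.0237 to 0.0555, TXN from -0.0391 to 0.0657, SRXN1 from -0.225 to -0.0829, GCLM from -0.206 to -0.123 and SLC7A11 from -0.228 to -0.156, and the genes called in all from 1670 (without F0 replicate 2) to 2621, against 2599. The genes called lower numbered 2805 with library size alone, 761 without F0 replicate 2 and 803 without F2 replicate 1, against 1241. The cause of these shifts was not tested. The thioredoxin list fell from 6 calls to 3 with DESeq2, without F0 replicate 2 or without F2 replicate 1, NADPH supply from 6 to 3 with DESeq2, and superoxide and peroxide from 3 to 1 without F0 replicate 2 or without F2 replicate 3. The stress list rose from 4 to 7 without F0 replicate 3 or without F2 replicate 2, and the partners of NRF2 from 2 to 10 with library size alone. Whether replicate numbers pair the samples was not settled. Deviations of same-numbered libraries correlated at 0.174, -0.04 and 0.17, and those of differently numbered libraries at -0.205 to 0.067. The replicate block gave 2867 calls (1501 higher, 1366 lower) and changed no call of a gene named here by the rule. KEAP1, with 20 counts in F0 and 18 in F2, stayed below the filter of the test.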
